A study of Mus musculus with 4 samples.

Results

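The genes described here are 57 DNA repair and checkpoint genes, chosen by name from the 13881 genes of the deposited table. The choice was made with earlier results of these data known, and all 57 were found in the table. They fall into 7 groups by role. There are 15 genes of homologous recombination, 9 of the Fanconi pathway, 4 of mismatch repair, 6 of base excision and single-strand break repair, 4 of nucleotide excision repair, 6 of end joining and 13 checkpoint kinases and their partners. RNA was sequenced from cultured neural progenitor cells, which divide in the embryonic brain and give rise to neurons and glia. In the shRybp group (2 libraries) the cells had been infected with a lentivirus carrying a short hairpin RNA against Rybp, which encodes a component of variant Polycomb repressive complexes. The control group (2 libraries) is labelled as receiving a control shRNA. Both groups were grown from the forebrain of C57bl/6 mice at embryonic day 14, in a proliferation medium with EGF and FGF-2 at 20 ng/ml each and 2% B27, and no library of uninfected cells was analysed here. Whether the replicates are separate cultures or infections is not in the labels, so the p-values reflect only how far these libraries differ, which may be a technical spread.

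DNA repair is divided among pathways that each handle one kind of lesion. Homologous recombination copies the sister chromatid to mend double-strand breaks after DNA has been replicated, and the Fanconi pathway feeds crosslinked DNA into it. Mismatch repair corrects copying errors, base excision repair removes single damaged bases, nucleotide excision repair cuts out bulky adducts, and end joining religates broken ends without a template. Checkpoint kinases sense damage and stalled replication forks and hold the cell cycle. Many recombination and fork genes are transcribed most strongly in cells that are copying their DNA, and mice that lack Xrcc4 or Lig4 lose newborn neurons in the embryonic brain.

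The libraries held 14355308 and 16400480 counts in shRybp cells, and 17598873 and 15938646 counts in control cells. Rybp, the targeted gene, had 3.01 and 2.66 FPKM (counts scaled to gene length and library size, from the authors' table) in shRybp cells, against 4.43 and 3.95 FPKM in control cells, which is 65.8% of the control level (edgeR adjusted p = 0.00175). Progenitor markers were present in every library, with a summed level over the 11 in the table of 2639 and 2552 FPKM in shRybp cells against 3384 and 3119 FPKM in control cells. Of the 10 that were tested, 2 rose (Nes, Vim) and 5 fell, among them Hes5, Fabp7, Msi1 and Sox2. Fabp7 held most of the sum, with 1468 and 1351 FPKM in shRybp cells against 2210 and 1982 FPKM in control cells. All 10 tested astrocyte markers fell, to a summed 676 and 713 FPKM in shRybp cells against 1289 and 1248 FPKM in control cells. The 10 neuron markers in the table summed to 339 and 324 FPKM in shRybp cells against 248 and 227 FPKM in control cells. Of the 7 tested, 2 rose and 3 fell, with a median log2 fold change of -0.18. Most of this sum came from 1 marker with a mean of 201 FPKM, beside a median of 7.74 FPKM over those tested. The 11 oligodendrocyte lineage markers in the table summed to 765 and 796 FPKM in shRybp cells against 838 and 871 FPKM in control cells, with 0 of the 9 tested rising and 4 falling. Of other cell types few markers were listed in the table: 2 of 8 for microglia, 2 of 6 for endothelium and 2 of 8 for fibroblasts and mural cells. Microglia markers summed to at most 0.967 FPKM in any library and endothelial markers to at most 0.765 FPKM. Fibroblast and mural markers, of which Acta2 was tested and rose, summed to 2.90 and 2.46 FPKM in shRybp cells against 1.70 and 1.69 FPKM in control cells. Mitochondrial genes took 4.09% and 3.92% of counts in shRybp cells against 5.22% and 4.73% in control cells. The part of these differences in the results on repair genes was not tested, and in bulk RNA a change in the share of cells of a type cannot be told apart from a change in RNA per cell.

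Knockdown of Rybp went with higher RNA of a large part of the repair and checkpoint genes. Of the 57, 26 rose, 3 fell and 28 did not pass the test (edgeR quasi-likelihood test, adjusted p at most 0.05 over the 12062 genes tested). All 57 were above the filter of a mean of 1 FPKM. The share that rose, 45.6%, stood beside 16.3% of all genes tested, and the share that fell, 5.26%, beside 16.7%. The rises were small: the 26 genes were between 1.18-fold and 1.59-fold higher in shRybp cells, with a median of 1.26-fold, and 2 of them (Xrcc3 and Rad9a) were at least 1.5-fold higher. The 3 genes that fell were Xrcc4, Xpc and Hus1, each from a different group. The median log2 fold change over the 57 genes was 0.22, against 0.00 over all genes tested, and 50 of the 57 values were above zero.

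Measured as counts scaled by TMM, both shRybp libraries were above both control libraries for 41 of the 57 genes, beside 33.8% of all genes tested. They were below both for 6, beside 33.2% of all genes tested, and the groups overlapped for the other 10. Summed over the 57 genes, the level was 648 and 637 FPKM in shRybp cells against 537 and 536 FPKM in control cells. The level of single genes ran from a mean of 1.56 FPKM for Palb2 to 56.5 FPKM for Apex1, and counts per gene and library from 107 to 4935. The standard errors of the log2 fold changes ran from 0.06 to 0.15.

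**Figure D1:**
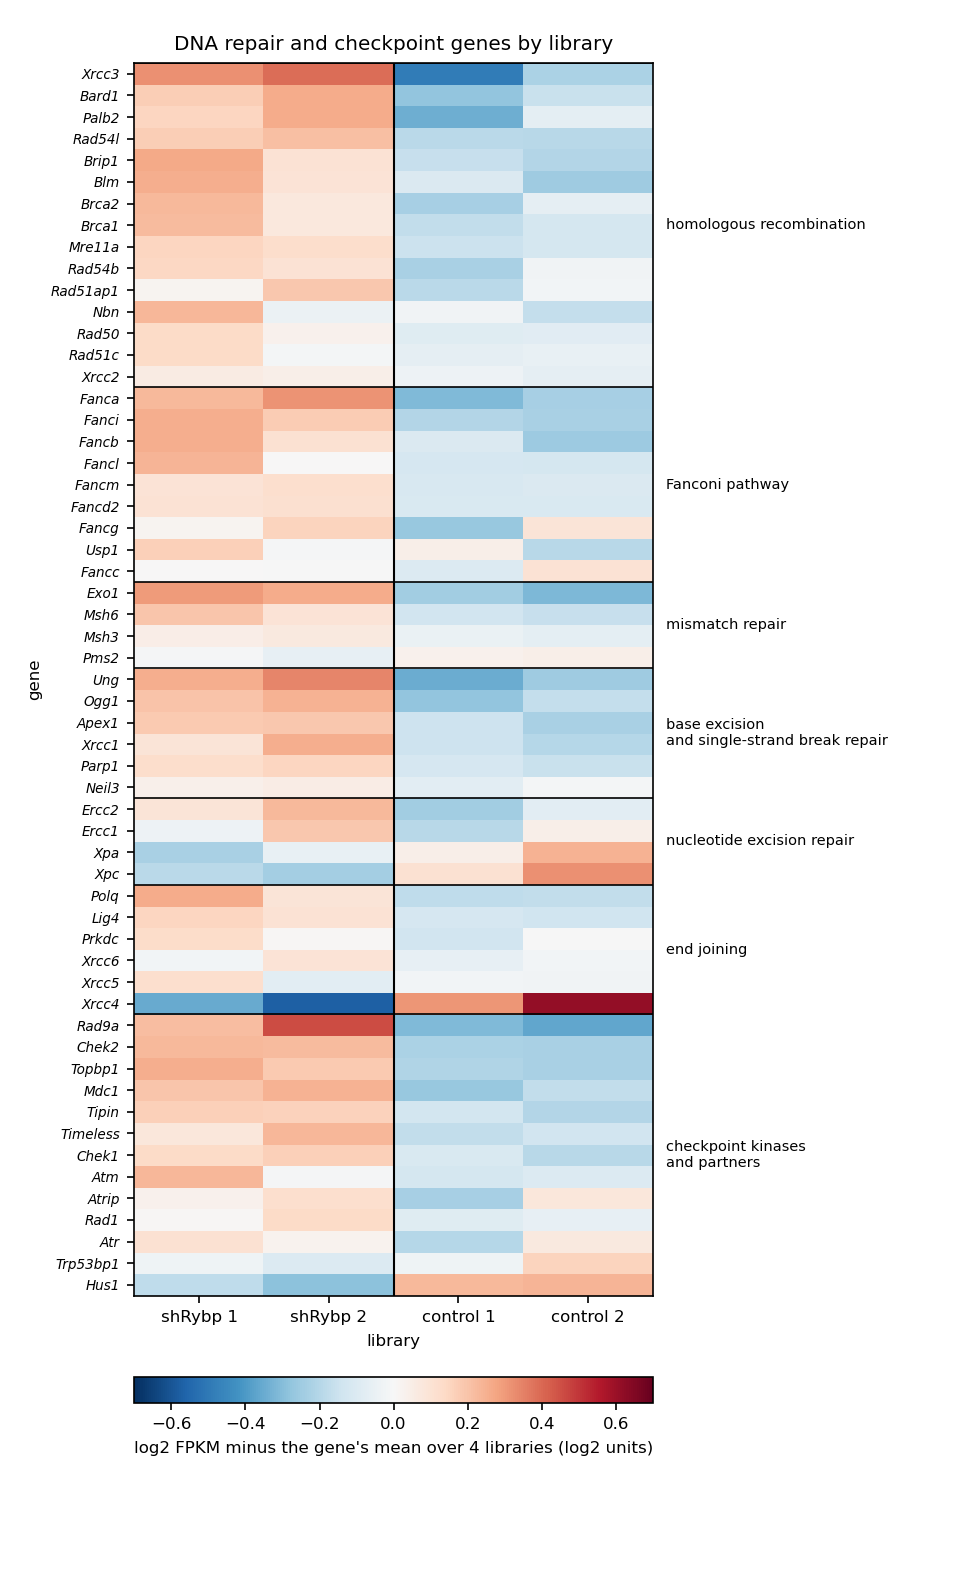
Level of each of the 57 genes (rows, by group) in each library (columns, shRybp 1 and 2 left of control 1 and 2), as log2 FPKM minus the gene's own mean over the 4 libraries. Most genes are red (above their mean) in both shRybp libraries and blue in both control libraries, and Xrcc4, Xpc and Hus1 show the opposite pattern.

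Promoters of the 57 genes, whether or not they rose, were searched for the binding motif of E2F factors. These drive genes of DNA synthesis, and repair genes are known among their targets. The motif was searched as TTTCCCGC, TTTCGCGC, TTTGCCGC and TTTGGCGC on both strands, in windows from 250 bases before to 50 bases after the start site (RefSeq, GRCm38.p6), which were given for 46 of the 57 genes. A match was present for 10 of the 46 genes (21.7%), against 5.17% of the 8851 tested genes with a window. Among the 23 genes that rose it was present for 6 (26.1%) and among the 2 that fell for 0. Among the 21 that did not pass it was present for 4, or 19.0% (Fancg, Msh3, Rad51c and Xrcc6). The promoters of 4 that rose are shown because they carry a match and rank highest by fold change, with the match in capitals and the rest in lower case, 5′ to 3′ on the gene's strand. They are Chek2 (chr5:110839733-110840032, plus strand), Topbp1 (chr9:103305077-103305376, plus strand), Mdc1 (chr17:35841248-35841547, plus strand) and Bard1 (chr1:71102923-71103222, minus strand).
Chek2: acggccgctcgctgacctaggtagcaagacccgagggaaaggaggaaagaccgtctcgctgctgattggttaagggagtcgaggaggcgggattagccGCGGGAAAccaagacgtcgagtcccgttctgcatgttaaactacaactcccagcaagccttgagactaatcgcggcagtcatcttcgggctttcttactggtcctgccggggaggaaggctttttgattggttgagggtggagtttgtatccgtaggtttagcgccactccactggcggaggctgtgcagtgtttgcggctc
Topbp1: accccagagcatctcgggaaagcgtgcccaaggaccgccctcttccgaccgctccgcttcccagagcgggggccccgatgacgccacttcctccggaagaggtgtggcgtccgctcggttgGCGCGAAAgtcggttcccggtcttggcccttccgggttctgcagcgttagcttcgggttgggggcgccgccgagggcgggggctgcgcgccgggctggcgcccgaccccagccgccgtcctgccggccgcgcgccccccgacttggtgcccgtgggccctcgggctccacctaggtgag
Mdc1: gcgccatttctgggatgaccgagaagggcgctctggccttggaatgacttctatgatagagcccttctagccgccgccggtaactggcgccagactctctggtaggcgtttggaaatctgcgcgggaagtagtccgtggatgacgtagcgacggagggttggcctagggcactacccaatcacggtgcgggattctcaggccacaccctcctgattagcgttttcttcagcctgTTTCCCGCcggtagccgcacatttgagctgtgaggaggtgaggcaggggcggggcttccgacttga
Bard1: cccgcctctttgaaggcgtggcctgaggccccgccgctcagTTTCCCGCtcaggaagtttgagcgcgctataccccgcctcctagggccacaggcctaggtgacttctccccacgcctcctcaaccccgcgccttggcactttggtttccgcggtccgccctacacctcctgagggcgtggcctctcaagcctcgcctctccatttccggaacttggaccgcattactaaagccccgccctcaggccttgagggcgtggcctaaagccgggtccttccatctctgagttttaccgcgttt
The first base of the match, counted from the start site, lay at -152 in Chek2, -129 in Topbp1, -16 in Mdc1 and -209 in Bard1. Brca2 and Msh6 also held a match, at -168 and at 16. The CHR motif of mitotic genes (TTTGAA and TTCGAA) was in 6 of the 46 windowed genes (13.0%), beside 15.6% of tested genes. The CCAAT box was in 25 of the 46 (54.3%), beside 43.9%. A match describes the letters of a window and does not show that a factor binds there.

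Among the homologous recombination genes, 8 of 15 rose (53.3%) and 0 fell, beside 16.3% and 16.7% of all genes tested. All 15 fold changes were above zero (median log2 fold change 0.26). Xrcc3 (chromosome 12, 111803192 to 111813873, minus strand), which acts in strand exchange at broken DNA, had 4.40 and 4.63 FPKM in shRybp cells against 2.52 and 3.03 FPKM in control cells. Both shRybp libraries were well above both control libraries, and the log2 fold change was 0.67 with a standard error of 0.14 (edgeR adjusted p = 0.00345). Its 95% interval ran from 0.36 to 0.98. Rad51c and Xrcc2, which act in the same step, did not pass: Rad51c had 3.90 and 3.53 FPKM in shRybp cells against 3.40 and 3.43 FPKM in control cells, and Xrcc2 had 5.99 and 5.90 FPKM in shRybp cells against 5.60 and 5.50 FPKM in control cells.

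Bard1 encodes the obligate partner of BRCA1 in a ubiquitin ligase that directs breaks to recombination. It had 5.09 and 5.42 FPKM in shRybp cells against 3.73 and 4.06 FPKM in control cells (log2 fold change 0.40, standard error 0.09, edgeR adjusted p = 0.00453). Brca1 itself had 12.6 and 11.3 FPKM in shRybp cells against 9.57 and 9.91 FPKM in control cells (log2 fold change 0.26, edgeR adjusted p = 0.0151). Groups did not overlap for either gene. Rad54l, a DNA translocase of strand exchange, had 8.09 and 8.30 FPKM in shRybp cells against 6.30 and 6.29 FPKM in control cells. Its log2 fold change was 0.35 (edgeR adjusted p = 0.00427). Brip1, a helicase that binds BRCA1, was at 4.93 and 4.40 FPKM in shRybp cells against 3.66 and 3.55 FPKM in control cells (0.33 on the log2 scale, edgeR adjusted p = 0.0145). Blm, the helicase that dissolves recombination intermediates, was at 8.37 and 7.52 FPKM in shRybp cells against 6.54 and 5.91 FPKM in control cells (0.31, edgeR adjusted p = 0.0140).

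Brca2, a mediator of strand exchange, also rose (log2 fold change 0.26, edgeR adjusted p = 0.0430), with 4.22 and 3.80 FPKM in shRybp cells against 3.07 and 3.46 FPKM in control cells. Mre11a, the nuclease of the MRE11-RAD50-NBN break sensor, was at 8.88 and 8.72 FPKM in shRybp cells against 7.21 and 7.33 FPKM in control cells (log2 fold change 0.24, edgeR adjusted p = 0.0384). Its partners did not pass, with Rad50 at 9.57 and 8.93 FPKM in shRybp cells against 8.25 and 8.26 FPKM in control cells, and Nbn at 21.9 and 18.1 FPKM in shRybp cells against 18.4 and 16.7 FPKM in control cells. The Nbn libraries overlapped. Palb2, which bridges BRCA1 and BRCA2, had 1.71 and 1.85 FPKM in shRybp cells against 1.22 and 1.48 FPKM in control cells and did not pass (log2 fold change 0.37, edgeR adjusted p = 0.0540). It was called in 5 of its 15 alternatives, which gave adjusted p between 0.0178 and 0.284. Rad54b, a paralogue of Rad54l, and Rad51ap1, which assists strand pairing, had log2 fold changes of 0.21 and 0.17 and did not pass. Rad54b was at 3.67 and 3.56 FPKM in shRybp cells against 2.84 and 3.26 FPKM in control cells, and Rad51ap1 at 9.68 and 10.9 FPKM in shRybp cells against 8.37 and 9.42 FPKM in control cells. The calls of 5 of the 8 genes were lost without 1 library or another. Without shRybp 1, Brca1, Brca2, Brip1, Blm and Mre11a were not called (edgeR adjusted p 0.109 to 0.221). Without control 1, Brca1, Brca2 and Mre11a were not called (0.0518 to 0.229), and without control 2, Brip1, Blm and Mre11a were not called (0.0658 to 0.1003). Without shRybp 2 only Mre11a was lost among the 8 (0.0824). DESeq2 did not call Brca2, Brip1 and Mre11a (adjusted p 0.0643 to 0.116). The 3 limma fits on log2 FPKM did not call Brca2 (adjusted p 0.0993 to 0.101), while limma-voom on the counts did (0.0336). Of these fits, the one after quantile normalization did not call Brca1 (0.0654). Across all alternatives the adjusted p of these 5 genes lay between 0.000503 and 0.229. Xrcc3, Bard1 and Rad54l were called whichever of the 4 libraries was left out.

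In the Fanconi pathway 2 of 9 genes rose and 0 fell, a share that rose of 22.2% beside 16.3% of all genes tested, so the group as a whole is not set apart by its count. Fanca (chromosome 8, 123268300 to 123318576, minus strand), a subunit of the core complex that ubiquitinates the FANCI-FANCD2 clamp, had 3.50 and 3.73 FPKM in shRybp cells against 2.42 and 2.54 FPKM in control cells (log2 fold change 0.51, standard error 0.09, edgeR adjusted p = 0.000799). Fanci, which encodes a subunit of that clamp, had 13.6 and 12.9 FPKM in shRybp cells against 9.86 and 9.73 FPKM in control cells (0.40, edgeR adjusted p = 0.00140). The groups did not overlap for either gene. Fancd2, for the other subunit, had 7.04 and 7.09 FPKM in shRybp cells against 6.09 and 6.10 FPKM in control cells. Its groups did not overlap, and its log2 fold change of 0.18 did not pass (edgeR adjusted p = 0.0994). Core complex genes Fancb, Fancl and Fancg and the translocase gene Fancm had log2 fold changes from 0.14 to 0.32, and Fancc, of the same complex, had -0.04, with none past the threshold. Fancb was at 4.52 and 4.08 FPKM in shRybp cells against 3.53 and 3.18 FPKM in control cells, and Fancl, the ubiquitin ligase, at 4.19 and 3.56 FPKM in shRybp cells against 3.26 and 3.25 FPKM in control cells. Fancm was at 4.34 and 4.42 FPKM in shRybp cells against 3.77 and 3.78 FPKM in control cells. These 3 were above control in both shRybp libraries, and the next pair overlapped with control. Fancg was at 4.49 and 4.92 FPKM in shRybp cells against 3.68 and 4.70 FPKM in control cells, and Fancc at 2.52 and 2.51 FPKM in shRybp cells against 2.35 and 2.70 FPKM in control cells. Usp1, the enzyme that removes the ubiquitin mark, had 44.3 and 39.3 FPKM in shRybp cells and 40.6 and 34.5 FPKM in control cells, and these overlapped. It was called without control 1 (edgeR adjusted p 0.0394), and over its alternatives the adjusted p lay between that value and 0.968. Exons of Fanca and Fanci overlap those of the opposite-strand genes Zfp276 and Polg over 920 and 921 bases. Zfp276 fell by 0.32 and Polg by 0.39 on the log2 scale. Without strand information, reads of overlapping exons cannot be told apart.

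Of the 4 mismatch repair genes, Exo1 and Msh6 rose (50%) and 0 fell, beside 16.3% and 16.7% of all genes tested. Exo1 (chromosome 1, 175880581 to 175913489, plus strand), the exonuclease that removes the mismatched strand, had 6.90 and 6.73 FPKM in shRybp cells against 4.75 and 4.52 FPKM in control cells. That was the largest change among the 4, at a log2 fold change of 0.52 with a standard error of 0.08 (edgeR adjusted p = 0.000485). Msh6, which finds base mismatches, had 30.0 and 28.0 FPKM in shRybp cells against 23.9 and 23.4 FPKM in control cells (0.26, edgeR adjusted p = 0.0101), and was not called without shRybp 1 (edgeR adjusted p 0.0954, the highest of its alternatives, with 0.000356 the lowest). Msh3, which finds larger insertion and deletion loops, had 2.70 and 2.74 FPKM in shRybp cells against 2.53 and 2.49 FPKM in control cells. Pms2, which nicks the strand to be repaired, had 2.85 and 2.75 FPKM in shRybp cells against 2.93 and 2.95 FPKM in control cells. Neither passed.

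Base excision and single-strand break repair had 5 of 6 genes that rose (83.3%) and 0 that fell, beside 16.3% and 16.7% of all genes tested. The count was 3 without control 2 and 3 without shRybp 2. Ung (chromosome 5, 114130386 to 114139323, plus strand), the glycosylase that removes uracil from DNA, had 4.68 and 4.98 FPKM in shRybp cells against 3.08 and 3.30 FPKM in control cells (log2 fold change 0.56, standard error 0.09, edgeR adjusted p = 0.00067). Ogg1, which removes oxidised guanine, had 9.22 and 9.49 FPKM in shRybp cells against 6.64 and 7.16 FPKM in control cells (0.41, edgeR adjusted p = 0.00947). Apex1, the nuclease that cuts at the abasic sites these enzymes leave, had 63.6 and 63.9 FPKM in shRybp cells against 50.7 and 47.9 FPKM in control cells (0.33, edgeR adjusted p = 0.00301). For all 3 genes both shRybp libraries were above both control libraries. Xrcc1, the scaffold that gathers the enzymes of strand repair, was at 9.34 and 10.4 FPKM in shRybp cells against 7.92 and 7.62 FPKM in control cells (0.31, edgeR adjusted p = 0.0141). Parp1, which senses strand breaks, was at 55.3 and 56.5 FPKM in shRybp cells against 46.9 and 45.7 FPKM in control cells (0.24, edgeR adjusted p = 0.00845). The glycosylase gene Neil3 did not pass, at 7.35 and 7.44 FPKM in shRybp cells against 6.81 and 7.11 FPKM in control cells. Ung and Apex1 were called whichever library was left out. Without shRybp 2, Ogg1 and Xrcc1 were not called (edgeR adjusted p 0.0703 and 0.121), and without control 2, Xrcc1 and Parp1 were not called (0.0540 and 0.0614). DESeq2 did not call Ogg1 (adjusted p 0.0695), and across all alternatives the adjusted p of these 3 genes lay between 0.000615 and 0.121. Reads of Apex1 may in part come from Pip4p1 on the opposite strand, which shares 877 exon bases with it and had a log2 fold change of 0.12, and those of Ogg1 from Camk1, which shares 232 exon bases and rose by 0.55.

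Of the nucleotide excision repair genes 1 of 4 rose and 1 fell, which in so small a group is near the 16.3% and 16.7% of all genes tested. Xpc (chromosome 6, 91489305 to 91515888, minus strand), the sensor that finds bulky lesions across the genome, fell, with 3.43 and 3.32 FPKM in shRybp cells against 4.22 and 4.88 FPKM in control cells. Both shRybp libraries were below both control libraries, at a log2 fold change of -0.46 with a standard error of 0.10 (edgeR adjusted p = 0.00371), and the 95% interval ran from -0.68 to -0.25. Xpa, which checks the damaged strand, had 3.93 and 4.43 FPKM in shRybp cells against 4.73 and 5.46 FPKM in control cells and did not pass (-0.31, edgeR adjusted p = 0.126). Ercc2, a helicase of the TFIIH complex, had 9.40 and 10.4 FPKM in shRybp cells against 7.47 and 8.39 FPKM in control cells (0.28, edgeR adjusted p = 0.0329). Its call was lost without control 1 (edgeR adjusted p 0.191) and without shRybp 2 (0.173), with DESeq2 (0.103) and with limma after quantile normalization (0.0550), and its lowest was 0.00851. Ercc1, part of the nuclease that cuts 5′ of the lesion, had 6.75 and 7.90 FPKM in shRybp cells against 6.05 and 7.13 FPKM in control cells, and the groups overlapped.

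End joining held the gene with the largest change of all 57. Xrcc4 (chromosome 13, 89774027 to 90089608, minus strand), the partner that stabilises DNA ligase IV, had 1.96 and 1.69 FPKM in shRybp cells against 3.11 and 3.85 FPKM in control cells. The shRybp libraries lay below the control libraries by a wide margin, at 0.512-fold of the control level (log2 fold change -0.97, standard error 0.15, edgeR adjusted p = 0.000374). The ligase gene Lig4 had 3.77 and 3.64 FPKM in shRybp cells against 3.13 and 3.08 FPKM in control cells, above control in both libraries but not past the threshold (0.22, edgeR adjusted p = 0.122). Polq, the polymerase of the alternative, microhomology-based joining route, was at 5.03 and 4.47 FPKM in shRybp cells against 3.71 and 3.72 FPKM in control cells (0.32, edgeR adjusted p = 0.0167), and was not called without shRybp 1 (edgeR adjusted p 0.123) or with limma after quantile normalization (0.0511), the lowest over its alternatives being 0.00430. The genes of the Ku dimer that caps broken ends, Xrcc5 and Xrcc6, and the kinase gene Prkdc had log2 fold changes of 0.01, 0.04 and 0.10, with groups that overlapped as scaled counts. Xrcc5 was at 19.5 and 17.05 FPKM in shRybp cells against 17.7 and 17.6 FPKM in control cells, Xrcc6 at 13.2 and 14.3 FPKM in shRybp cells against 12.8 and 13.2 FPKM in control cells and Prkdc at 3.93 and 3.62 FPKM in shRybp cells against 3.28 and 3.59 FPKM in control cells. With 1 of 6 genes rising, this group was at the share of all genes tested.

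Of the checkpoint kinases and their partners, 7 of 13 rose (53.8%) and 1 fell (7.69%), beside 16.3% and 16.7% of all genes tested. Rad9a (chromosome 19, 4195196 to 4201662, minus strand), a subunit of the RAD9-RAD1-HUS1 clamp that is loaded at stalled forks, had 5.92 and 6.98 FPKM in shRybp cells against 4.11 and 3.95 FPKM in control cells (log2 fold change 0.65, standard error 0.13, edgeR adjusted p = 0.00248). Hus1 (chromosome 11, 8993137 to 9011191, minus strand), its partner in that clamp, fell, with 8.98 and 8.32 FPKM in shRybp cells against 11.9 and 11.97 FPKM in control cells. Its log2 fold change was -0.50 with a standard error of 0.08 (edgeR adjusted p = 0.000307), and the groups did not overlap. The remaining subunit Rad1 had 2.00 and 2.18 FPKM in shRybp cells against 1.88 and 1.91 FPKM in control cells and did not pass (0.11, edgeR adjusted p = 0.503). Exons of Rad9a share 225 bases (9.53% of them) with Ppp1ca on the opposite strand, which rose by 0.25 on the log2 scale and had 16289 counts in all beside 792 for Rad9a.

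Topbp1, which binds the clamp and switches on the kinase ATR, had 27.3 and 26.0 FPKM in shRybp cells against 19.8 and 19.5 FPKM in control cells (log2 fold change 0.40, standard error 0.06, edgeR adjusted p = 0.000296). Mdc1, which spreads the damage signal along chromatin, had 39.2 and 40.5 FPKM in shRybp cells against 28.5 and 30.4 FPKM in control cells (0.40, edgeR adjusted p = 0.00031). Chek2, the effector kinase of ATM, had 11.0 and 10.9 FPKM in shRybp cells against 8.03 and 7.99 FPKM in control cells (0.41, edgeR adjusted p = 0.00258). These 3 genes, Rad9a and Hus1 were called whichever library was left out. Timeless and Tipin, whose products together protect the replication fork, rose by 0.28 and 0.30 (edgeR adjusted p = 0.0122 and 0.00761). Timeless had 13.9 and 15.5 FPKM in shRybp cells against 11.7 and 11.97 FPKM in control cells, and Tipin had 42.9 and 42.8 FPKM in shRybp cells against 35.0 and 33.1 FPKM in control cells. Chek1, the effector kinase of ATR, had 9.12 and 9.31 FPKM in shRybp cells against 7.71 and 7.25 FPKM in control cells (0.26, edgeR adjusted p = 0.0316). Chek1 was not called without shRybp 1, shRybp 2 or control 2 (edgeR adjusted p 0.0659 to 0.179). Timeless was not called without shRybp 2 (0.157), nor Tipin without control 2 (0.0518). DESeq2 did not call Chek1 (adjusted p 0.114), and across all alternatives the adjusted p of these 3 genes lay between 0.000429 and 0.179. The apical kinase genes did not pass: Atm had 9.59 and 8.11 FPKM in shRybp cells against 7.49 and 7.63 FPKM in control cells, and Atr had 2.21 and 2.09 FPKM in shRybp cells against 1.79 and 2.15 FPKM in control cells. Atm was called without shRybp 2 (edgeR adjusted p 0.0221), and its adjusted p lay between 0.0188 and 0.676 over the alternatives. Trp53bp1, which steers breaks to end joining, had 8.71 and 8.34 FPKM in shRybp cells against 8.71 and 9.92 FPKM in control cells (-0.16, edgeR adjusted p = 0.0989), and was called lower without control 1 (0.0299, within a range from 0.0252 to 0.540). Atrip, the partner of ATR, was at 3.04 and 3.23 FPKM in shRybp cells against 2.54 and 3.14 FPKM in control cells and did not pass (0.11).

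**Figure D2:**
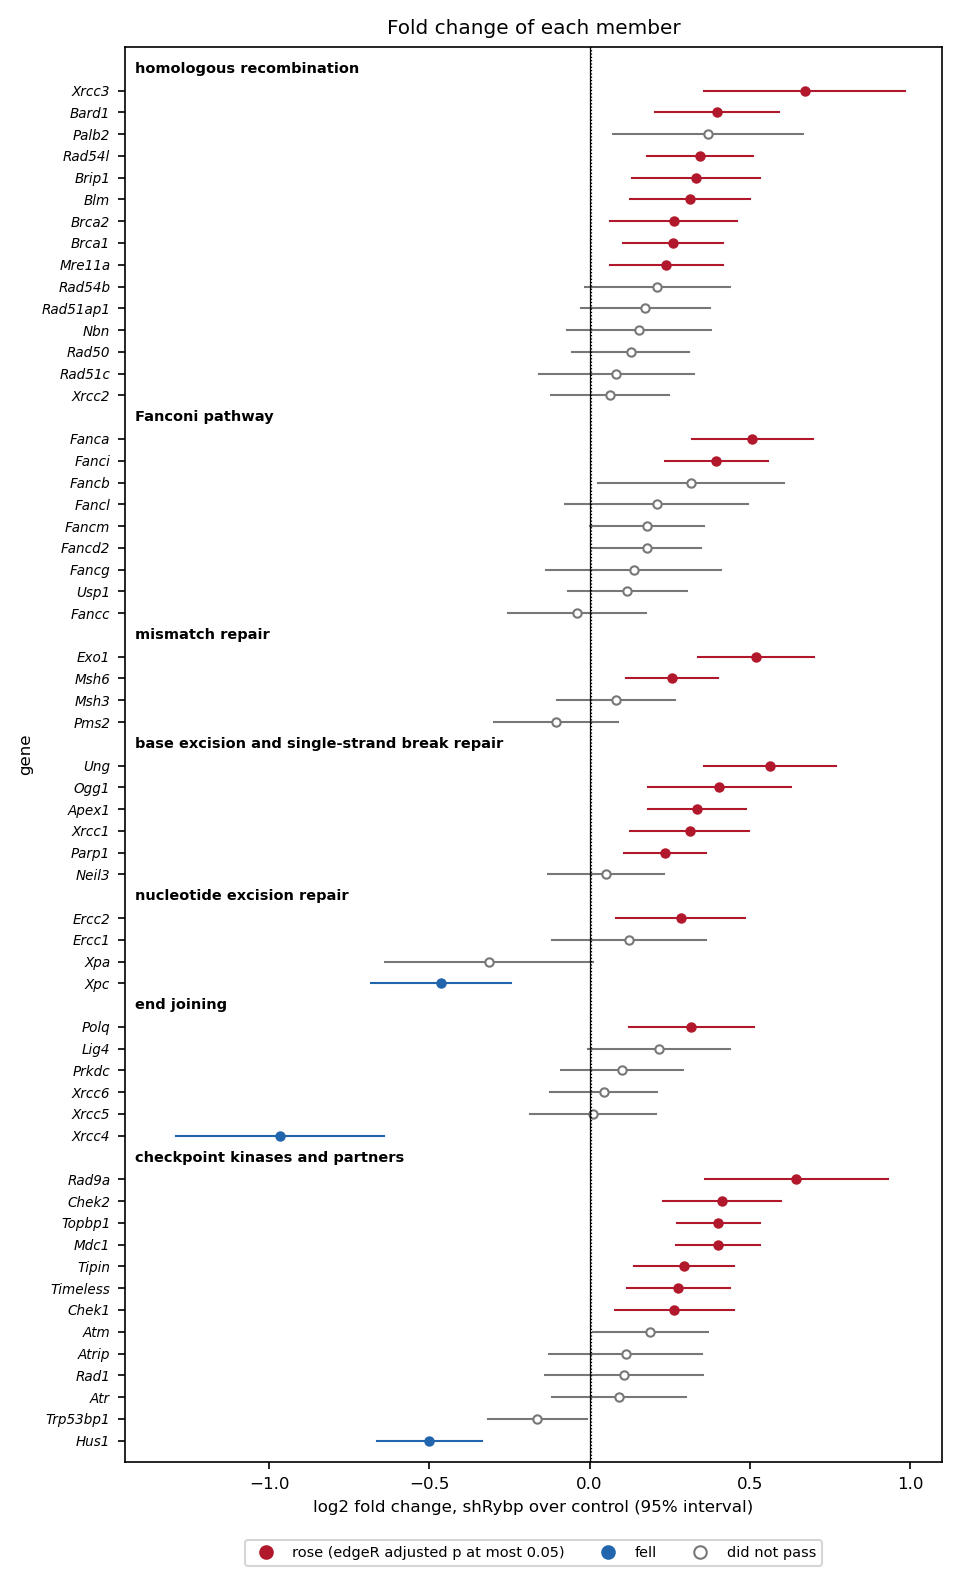
Log2 fold change of each of the 57 genes, shRybp over control, with its 95% interval (horizontal line), by group from top to bottom. Points are filled where the gene passed the edgeR test (26 red, 3 blue) and open where it did not (28); the lowest point is Xrcc4 at -0.97 and the highest Xrcc3 at 0.67.

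Some partners changed together and others did not. Ratios of FPKM were taken for 45 pairs of genes whose products act together or are paralogues, and in 7 of the 45 the 95% intervals of the fold changes of the paired genes did not overlap. With 2 libraries a group, an exact permutation test of such a ratio cannot give a p-value under 0.333, so the ratios are a description. The Rad9a to Hus1 ratio was 0.659 and 0.839 in shRybp cells against 0.346 and 0.330 in control cells, and the Rad1 to Hus1 ratio was 0.223 and 0.262 in shRybp cells against 0.158 and 0.160 in control cells. The Xrcc4 to Lig4 ratio was 0.521 and 0.465 in shRybp cells against 0.994 and 1.25 in control cells. In all 3 pairs every shRybp library lay on one side of both control libraries. That follows from the single genes and adds no separate evidence. Rad9a, Rad1 and Lig4 were above control in both shRybp libraries, and Hus1 and Xrcc4 were below.

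The other 4 pairs with separate intervals were Rad9a with Rad1, Rad51c and Xrcc2 each with Xrcc3, and Fanca with Fancc. Rad51c to Xrcc3 stood at 0.887 and 0.762 in shRybp cells against 1.35 and 1.13 in control cells, and Fanca to Fancc at 1.39 and 1.49 in shRybp cells against 1.03 and 0.944 in control cells. Pairs that kept overlapping ratios included Xrcc5 with Xrcc6 (1.48 and 1.19 in shRybp cells, 1.38 and 1.34 in control cells), Timeless with Tipin (0.323 and 0.361 in shRybp cells, 0.333 and 0.362 in control cells) and Brca1 with Bard1 (2.47 and 2.09 in shRybp cells, 2.57 and 2.44 in control cells). Fanci to Fancd2 was at 1.93 and 1.81 in shRybp cells against 1.62 and 1.60 in control cells, so the groups were apart, though the intervals of both fold changes overlapped.

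**Figure D3:**
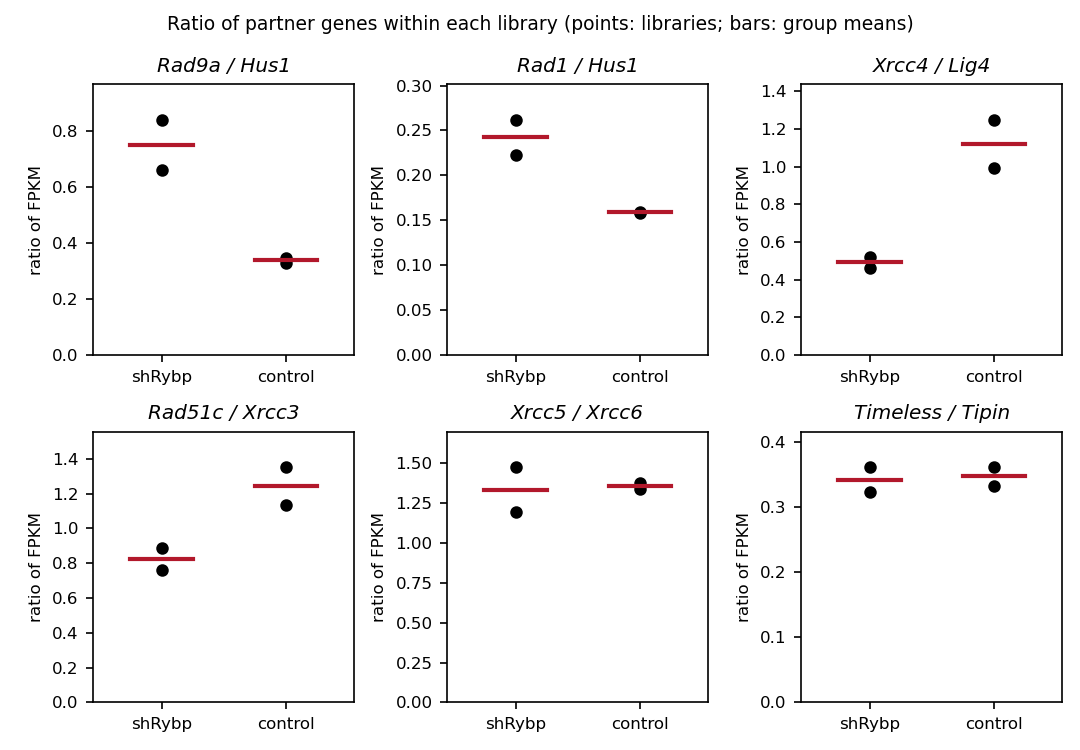
Ratio of FPKM of paired genes (y axis, from 0) in each library (points) of the shRybp group (left) and control group (right), with red bars at the group means. Rad9a to Hus1 averages 0.749 in shRybp cells and 0.338 in control cells, Xrcc4 to Lig4 averages 0.493 in shRybp cells and 1.12 in control cells, and the ratios of Xrcc5 to Xrcc6 and of Timeless to Tipin overlap between the groups.

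Beyond the 57 genes, 117 other genes of the same pathways and of translesion and post-replication repair were tested. Their lists were made by pathway membership, with earlier results of these data known. Of these, 26 rose (22.2%) and 8 fell (6.84%), beside 16.3% and 16.7% of all genes tested, with a median log2 fold change of 0.08. Other checkpoint genes gave 7 of 16 rising and 1 falling, with Cdc25a, the phosphatase that starts DNA synthesis, at 0.62 and Rad9b at -0.68. Other homologous recombination genes gave 8 of 29 rising and 1 falling, with the helicase genes Recql4 at 0.59 and Wrn at -0.68. Of other Fanconi genes 0 of 8 passed in either direction, and of other end joining genes 1 of 5 fell (Dclre1c, -0.42) and 0 rose. Other base excision genes gave 3 of 18 rising, with the glycosylase gene Mutyh at 0.48 and the flap nuclease gene Fen1 at 0.44, and 1 falling (Aptx, -0.36). Other nucleotide excision genes gave 4 of 20 rising and 2 falling, with the TFIIH subunit genes Gtf2h4 at 0.38 and Mnat1 at -0.36. Translesion genes gave 3 of 17 rising and 2 falling, with the polymerase gene Polh at 0.36 and Ube2v2, a cofactor of ubiquitin conjugation, at -0.47. The shares that rose among the other base excision, other nucleotide excision and translesion genes were 16.7%, 20% and 17.6%. These are near the share of all genes tested, so those lists are not set apart by their counts of rising genes.

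Most of the genes listed for DNA replication and mitosis rose too. Of 39 DNA replication genes 33 rose (84.6%) and 1 fell (2.56%), beside 16.3% and 16.7% of all genes tested. Their median log2 fold change was 0.45, and their summed level was 1188 and 1162 FPKM in shRybp cells against 851 and 818 FPKM in control cells. Of 30 mitosis genes 21 rose (70%) and 0 fell (median 0.30), with a summed 1474 and 1455 FPKM in shRybp cells against 1190 and 1139 FPKM in control cells. Among those that rose were the origin licensing gene Orc1 (0.84), the methylation maintenance gene Uhrf1 (0.74), the mitotic kinase gene Plk1 (0.65) and Gtse1 (0.55), and the replication gene that fell was Rpa3 (-0.30), a subunit of the single-strand binding protein. An E2F match was in 13 of 31 replication genes (41.9%) and in 1 of 26 mitosis genes (3.85%), beside 5.17% of tested genes. The CHR motif was in 6 of the 31 replication genes (19.4%) and in 20 of the 26 mitosis genes (76.9%), beside 15.6%. The part of these genes, and of the share of cells in division, in the changes of the 57 was not tested. Of 23 targets of p53, the factor that checkpoint kinases activate, 8 rose (34.8%) and 5 fell (21.7%). The shares of all genes tested were 16.3% and 16.7%. The median of the targets was 0.11, with Pidd1 at 0.71 and Ddit4 at -0.73. Bax (0.45) and Aen (0.40) were also among the targets that rose, and Btg2 (-0.40) and Ei24 (-0.26) among those that fell. Cdkn1a and Mdm2, of the same list, had 0.12 and 0.11 (edgeR adjusted p = 0.230 and 0.297) and did not pass.

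**Figure D4:**
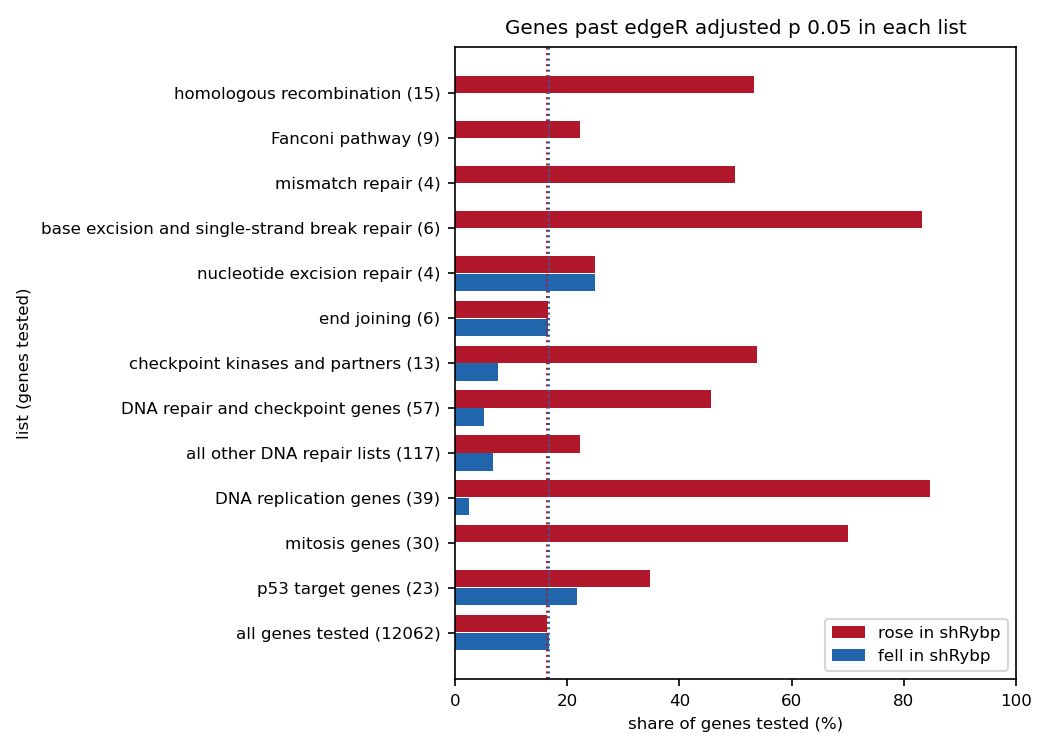
Share of the genes of each list that rose (red) or fell (blue) in shRybp cells with an edgeR adjusted p of at most 0.05 (x axis, percent of genes tested; number tested in parentheses), with dotted lines at the shares of all genes tested. The 57 repair and checkpoint genes rose in 45.6% of cases, the 39 replication genes in 84.6% and the 117 other repair genes in 22.2%, beside 16.3% of all genes.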

How the data were processed

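RNA was sequenced in 2 shRybp and 2 control libraries. The table the authors deposited gives unnormalized counts of reads for each gene in each library. Beside them stand FPKM values computed by the authors, which differed from the counts by gene length and 1 factor per library, per the file headers and values. Reads were placed on mm10 (submitters' processing notes). For the aligner, counting program and strand setting, nothing was stated in the labels or the file. The 13881 genes listed each have at least 40 counts over the 4 libraries. Gene starts and ends are the table's, with chromosomes and strands from GENCODE release M21, and 21 symbols turned into dates by a spreadsheet were restored from their identifiers. Libraries of a group differed by more than counting noise (chi-square per degree of freedom 4.37 in shRybp and 5.18 in control) and were kept apart.

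Groups were compared with edgeR 4.0.16 in R 4.3.3 (TMM scaling, two-sided quasi-likelihood test, groups as the only term) on the counts, keeping the 12062 genes that averaged at least 1 FPKM, with Benjamini-Hochberg adjustment over all of them and a threshold of 0.05. A standard error is the size of the log2 fold change over the root of its F statistic. Alternatives used DESeq2 1.42.0, limma 3.58.1 on log2(FPKM + 1) and log2(FPKM + 0.1), other scalings and filters, a replicate block, and each library left out in turn. The text accounts for all 57 genes and gives values by library for those that fell, for up to 6 per group that passed, in order of fold change, and for genes of the paired complexes. Gene sets, members and lists were chosen with earlier results of these data known. Some genes of these pathways are not reported here. Exon overlaps came from GENCODE, and promoter windows from RefSeq (GRCm38.p6). Exons of 20 of the 57 genes overlap those of another gene with counts, for 18 of them on the opposite strand. Beside those named above, they include Trp53bp1 (2130 bases, with Tubgcp4), Rad54l (1184, with Lrrc41), Ercc2 (744, with Klc3) and Xrcc4 (112, with Tmem167). Rad54b shares 2068 exon bases with Fsbp on the same strand.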

Additional observations from a re-analysis of the deposited data

How the results depend on the processing

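Rybp stayed below control and past the threshold in all 15 alternatives that tested it. Of the 29 called members, 15 were past the threshold in every alternative that tested them: Xrcc4, Hus1 and Xpc, and 12 that rose. The number of the 57 genes that rose was 20 with DESeq2, 22 with quantile normalization, 25 to 27 under the other scalings, models and lower filters, and 18 to 23 without 1 library. With a filter of 5 FPKM, 32 of them were tested, 19 rose and 1 fell. The median log2 fold change was 0.25 with library totals, 0.25 with a pseudocount of 0.1 and 0.19 with quantile normalization. In the same fits the median of all genes was 0.04, 0.04 and 0.01. Homologous recombination genes that rose numbered 5 with DESeq2, 4 with the 5 FPKM filter and 3 to 7 without 1 library. At that filter 1 Fanconi and 0 end joining genes rose. Quantile normalization gave 0 for end joining, and both it and DESeq2 gave 0 for nucleotide excision. Without 1 library, mismatch genes numbered 1 to 2, base excision 3 to 5, nucleotide excision 0 to 1 and end joining 0 to 1. Over all genes, 1296 to 1640 rose without 1 library, with the fewest without shRybp 2, and DESeq2 called 1371 rising and 1447 falling. The cause of these moves was not tested.

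Signs turned without 1 library for 7 genes that did not pass: log2 fold changes ran from -0.13 to 0.047 for Fancc, -0.027 to 0.31 for Fancg, -0.0062 to 0.25 for Usp1, -0.090 to 0.11 for Xrcc5 (-0.0067 with the 5 FPKM filter), -0.013 to 0.097 for Xrcc6, -0.032 to 0.22 for Atr and -0.031 to 0.26 for Atrip. With the replicate number as a block, 29 of the 57 genes rose and 4 fell (added were Palb2, Fancb, Atm and, among those that fell, Trp53bp1), and 2676 and 2652 of all genes. Same-numbered libraries deviated together with r = 0.10 across 12062 genes, which are not independent replicates, and the labels give the numbers no further meaning. With 2 libraries a group, a gene that did not pass is not shown to be unchanged.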
